A study of Mus musculus with 6 samples.

Results

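The deposited sheet of miRNAs and piRNAs holds 1465 rows, and 188 of them are piRNA annotations, each named by a piRNA identifier and 1 genomic interval. The 188 rows carry 88 different identifiers. Of these, 59 occur in exactly 1 row and are called single-copy piRNA rows here, while the other 29 identifiers share 129 several-copy rows. The choice used the row names alone and no measured value. Single-copy means 1 row in the sheet; whether the RNA matches the genome at only 1 place was not checked.

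Cells isolated from mouse urinary bladders gave 3 CYP and 3 Control libraries of small RNA, each prepared from 100 ng total RNA using the Qiagen miRNA kit. CYP mice had 4 intraperitoneal injections of cyclophosphamide, an alkylating drug that injures the bladder lining through its products in urine, at 80 mg/kg on days 2, 4, 6 and 8, and were 8 weeks old and 8 days past induction. Control mice, of the same age, were given saline by the same route, and their labels call them naïve. Nothing in the labels ties each library to an animal of its own, so the p-values rest on the spread between these 3 and 3 libraries, which can be technical.

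piRNAs are small RNAs bound by PIWI proteins, and are longer than miRNAs. In the germ line of mice they guide PIWI proteins to transposon transcripts and to transposon copies in the genome, which are then cut or silenced. Annotations of piRNAs were collected largely from testis, and in somatic tissue a read placed on one can also be a piece of another RNA, such as rRNA or tRNA, with the same letters. PIWI binding was not measured in these libraries, so the rows below are named as annotations.

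The 59 rows lay on 16 chromosomes, 39 on the plus strand and 20 on the minus strand. By their coordinates they were 16 to 32 bases long with a median of 27, against a median of 29 for the several-copy rows, and 47 of them were between 25 and 32 bases. Coordinates are given here as the row names have them, with no build named there. At those coordinates 0 of the 188 piRNA rows met a small RNA gene on the same strand in GENCODE M21 (mm10), and 0 met a tRNA, rRNA, snoRNA or snRNA gene of RefSeq GRCm38.p6 on either strand, so the rows are not placed on an annotation. No sequence is printed for the rows, because no table used here pairs their names with one.

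Counts are of UMIs (unique molecular identifiers, the random tags by which copies of 1 cDNA molecule are counted once), with 1.02 to 1.03 reads per UMI over the single-copy rows. The piRNA rows together held 51717, 55920 and 43620 UMIs in the CYP libraries and 30337, 42666 and 55223 UMIs in the Control libraries, against 9110719 to 12180739 UMIs on miRNAs. A 0 in the sheet is not always an absence: values of 1 to 9 UMIs never appear in CYP replicate 1 or Control replicate 3, and in the other libraries they appear only where 1 particular library of the other group has at least 10, so a listed 0 can stand for up to 9 UMIs. For the tissue, the 4 smooth muscle miRNAs (miR-143 and miR-145a) summed to between 254106 and 266299 per 1000000 miRNA UMIs in CYP libraries and between 264085 and 285892 in Control libraries. The 7 epithelial miRNAs (the miR-200 family, miR-205 and miR-203) summed to between 48160 and 51861 in CYP and between 43965 and 46532 in Control. However, 1 of them, miR-203-3p, went the other way, with 5069 to 5302 in CYP and 5756 to 6692 in Control. The groups overlapped for miR-205-5p (13527.5 to 17411 in CYP, 12930 to 14172 in Control) and for miR-200c-3p (1864 to 2183 in CYP, 1759 to 1903 in Control). Some markers of blood cells differed between the groups. The 4 erythroid miRNAs (miR-451a, miR-144 and miR-486a) summed to between 327 and 386 in CYP and between 464 and 556 in Control. Of the 2 lymphoid miRNAs, miR-150-5p had 328 to 353 in CYP and 571 to 776 in Control, while miR-155-5p had 211 to 221 in CYP and 189 to 204 in Control. The 2 myeloid miRNAs (miR-223 and miR-142a) overlapped, with sums of 2433 to 3293 in CYP and 2378 to 2930 in Control. The part of these cells in the values below was not tested. Of 18 miRNAs of the male germ line 10 were not listed, and the other 8 together reached between 4.80 and 6.27 per 1000000 in CYP and between 5.80 and 7.55 in Control. Most of this was miR-547-3p, with means of 3.56 in CYP and 5.23 in Control. Each of the rest was listed at 0 in at least 2 libraries and never exceeded 11 UMIs.

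Control replicate 1 stood apart from the other 5 libraries. rRNA reads came to 4369, 5948 and 4415 per 1000000 miRNA reads in the CYP libraries, and to 1559 in Control replicate 1 against 3572 and 4300 in the other Control libraries. tRNA reads came to 63328, 77789 and 60779 per 1000000 miRNA reads in the CYP libraries, and to 190493 in Control replicate 1 against 103755 and 67227 in the other Control libraries. The several-copy piRNA rows of Control replicate 1 had a median of 34.7% of the mean of the other Control libraries. Most results that rest on this library are therefore given with and without it. Fits without it take the spread within Control from Control replicates 2 and 3 alone. The results also depend on what the counts are scaled to. Levels below are UMIs per 1000000 miRNA UMIs of the same library, called normalised UMIs, unless another scale is named.

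The mean sum of the single-copy rows was slightly higher in CYP libraries, within a narrow margin, and most of the difference lay in 1 run of rows on chromosome 17. All 59 rows together reached 2271, 2640 and 2237 normalised UMIs in the CYP libraries, against 1627, 2233 and 2155 in the Control libraries. The groups did not overlap on this scale, but CYP replicate 3 exceeded Control replicate 2 by only a few units. The ratio of the means was 1.19, or 1.09 without Control replicate 1. The means differed by 378 normalised UMIs, of which the run held 319, and without Control replicate 1 by 189, of which the run held 181. The exact two-sided permutation test gave p = 0.1, the smallest that 3 against 3 libraries allow. The groups overlapped with 1 row kept per overlapping set (ratio 1.16, exact permutation p = 0.3) and as reads over all reads of the library (ratio 1.14, exact permutation p = 0.5). In bulk libraries such as these, fewer cells that hold an RNA and less of it per cell cannot be told apart. Overlapping rows may also count a read more than once, since no source used here says how such reads were counted.

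The 48 single-copy rows outside the run summed to 1525, 1630 and 1575 normalised UMIs in CYP and to 1419, 1575 and 1562 in Control. These groups overlapped, with a ratio of means of 1.04 (exact permutation p = 0.4), or 1.01 without Control replicate 1. Against the several-copy rows, the single-copy rows held 50.3%, 49.0% and 48.2% of all piRNA UMIs in the CYP libraries and 59.1%, 47.7% and 47.5% in the Control libraries. The difference of the mean shares was −2.29 percentage points (exact permutation p = 1), and 1.56 points without Control replicate 1.

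No single-copy row passed the test across all piRNA rows. edgeR's quasi-likelihood test on the UMI counts, with Benjamini-Hochberg adjustment over the 165 piRNA rows that passed its filter on low counts and trimmed-mean (TMM) scaling to the piRNA rows, called 0 of 48 tested single-copy rows at an adjusted p below 0.05, where the background was 0% of all 165 rows. At an unadjusted p below 0.05 it picked 17 of the 48 (background 30.3%): 2 higher in CYP (background 6.67%) and 15 lower (background 23.6%). The median log2 fold change of the 48 rows was −0.59, beside 0.07 over all 165 rows and 0.15 over the 117 tested several-copy rows. In the same fit without Control replicate 1, the medians were −0.23 over the tested single-copy rows and 0.03 over all tested piRNA rows. Several-copy rows of 1 identifier may count the same reads, which was not checked. The backgrounds and the medians over all rows can therefore weigh 1 RNA several times. With the scaling factors and totals of the miRNA rows in place of those of the piRNA rows, edgeR again called 0 rows. At an unadjusted p below 0.05 that edgeR fit picked 8 of the 48 single-copy rows, beside 39 of all 165 rows. That scaling moved the median over all piRNA rows up by 0.70, to 0.78, and the median of the single-copy rows was then 0.23. Where the log2 fold change of a single row is given below, it is therefore given under both scalings.

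DESeq2 on the same 165 rows called 2 single-copy rows higher (background 2.42%) and 11 lower (background 17%). Scaling to the plain totals of the piRNA rows gave 10 called higher (background 24.8%) and 3 lower (background 3.03%). Without Control replicate 1, edgeR called 0 rows higher (background 2.89%) and 11 of 51 lower (background 17.3%): mmu_piR_032974, mmu_piR_027673, mmu_piR_005109, mmu_piR_002142, mmu_piR_000273, mmu_piR_028252, mmu_piR_004086, mmu_piR_003399, mmu_piR_000935, mmu_piR_003770 and mmu_piR_024062, none of them in the chromosome 17 run. Without that library and with scaling to the miRNA rows, it called 9 of 50 higher (background 21.8%), of which 5 lay in the run, and 3 lower (background 4.12%). Scaling to library totals without it gave 14 of 51 higher (background 35.3%) and 3 lower (background 8.09%). Upper-quartile factors called 0 higher and 2 lower (background 2.42%), mmu_piR_027673 and mmu_piR_002142, and a fit of miRNA and piRNA rows in 1 table called 0 higher (background 0.606%) and 1 lower (background 0.606%), mmu_piR_027673. Over the edgeR test above and its 20 alternatives, 15 tested rows kept a log2 fold change above 0 in every setting that gave them a value, 15 kept one below 0, and 18 depended on the setting. Of those 30 rows, 7 had no value in 1 or 2 settings: mmu_piR_004567, mmu_piR_005355, mmu_piR_038322, mmu_piR_000536, mmu_piR_006156, mmu_piR_024525 and mmu_piR_032156. Most of the settings kept TMM scaling to the piRNA rows, so they are not separate checks of direction. mmu_piR_015668, mmu_piR_017405, mmu_piR_032015 and mmu_piR_025576 were below 0 in every setting. In normalised UMIs their CYP means were nonetheless above the Control means, with ratios of 1.09, 1.06, 1.03 and 1.02.

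Groups that did not overlap were counted on both scales. In normalised UMIs, CYP lay wholly above Control in 19 of the 48 tested rows, where the background was 51.5% of all tested piRNA rows, and below them in 3 rows (background 2.42%), mmu_piR_032974, mmu_piR_027673 and mmu_piR_002142. On TMM-scaled counts, CYP lay above in 5 rows (background 18.8%) and below in 14 (background 19.4%).

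**Figure D1:**
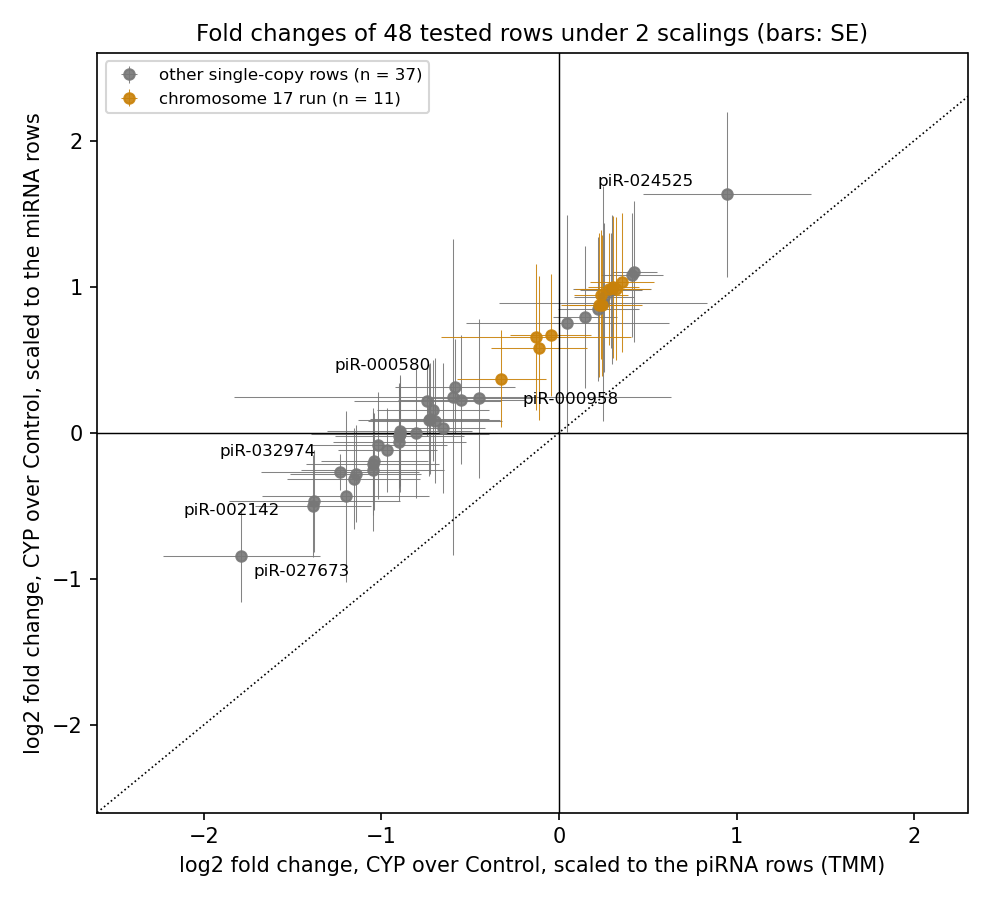
Each point is 1 of 48 tested single-copy piRNA rows, placed by its log2 fold change (CYP over Control). The x axis has TMM scaling to the piRNA rows and the y axis has scaling to the miRNA rows. Bars are SE derived from edgeR's F statistic, and the dotted line marks equal values. All points lie above the line, the 11 rows of the chromosome 17 run lie above 0 on the y axis, and mmu_piR_027673 and mmu_piR_002142 lie below 0 on both.

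The 10 most abundant rows held 82.9% of all single-copy UMIs, and mmu_piR_032974 alone held 34.2%. This 28-base row (chromosome 4, bases 130021751 to 130021778, plus strand) had 689.9, 709 and 721 normalised UMIs in the CYP libraries and 807, 756 and 801 in the Control libraries. All 3 CYP libraries lay below all 3 Control libraries, by a small margin, and Control replicate 1 was not low here. Its log2 fold change was −1.23 ± 0.44 (SE) under TMM (edgeR, adjusted p = 0.124) and −0.27 ± 0.12 under scaling to the miRNA rows (adjusted p = 0.202). Without Control replicate 1, edgeR with TMM called it lower, at −0.56 (adjusted p = 0.00258), and over the 20 alternatives its adjusted p ran from 0.00258 to 0.303. Scaled to the miRNA rows without that library it was −0.22 and not called (edgeR, adjusted p = 0.131). Its share of the single-copy UMIs was 30.4%, 26.9% and 32.2% in CYP and 49.6%, 33.8% and 37.2% in Control (exact permutation p = 0.1).

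The 29-base row mmu_piR_022877 (chromosome 16, bases 23024323 to 23024351, plus strand) had the smallest spread within groups, relative to the means, of the 10 most abundant rows. It had 174, 173 and 178 normalised UMIs in the CYP libraries, against 142, 139.6 and 135 in the Control libraries. The groups did not overlap, and Control replicate 1 was the highest of the Control libraries. The means were 175 ± 2.87 in CYP and 139 ± 3.56 in Control (SD, n = 3 each), a ratio of 1.26, or 1.27 without Control replicate 1. The fitted direction flipped with the scaling, with a log2 fold change of −0.74 ± 0.41 under TMM and 0.22 ± 0.24 under scaling to the miRNA rows (edgeR, adjusted p = 0.239 and 0.555), and no alternative called the row.

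mmu_piR_005109 (32 bases, chromosome 5, bases 146565258 to 146565289, plus strand) had 109, 117 and 108 normalised UMIs in CYP and 87.6, 125 and 125 in Control. The groups overlapped on this scale. Under TMM its log2 fold change was −0.97 ± 0.28 (edgeR, adjusted p = 0.119), and without Control replicate 1 it was −0.60 and called (adjusted p = 0.00352). Under scaling to the miRNA rows it was −0.12 ± 0.29 (edgeR, adjusted p = 0.843). With that scaling and without Control replicate 1 it was −0.24 and not called (adjusted p = 0.329). Over the 20 alternatives its adjusted p ran from 0.00352 to 0.843.

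The lowest fold change of the tested rows under TMM was that of mmu_piR_027673, a 22-base row on chromosome 11 (bases 106317081 to 106317102, plus strand). It had 695, 813 and 814 UMIs in the CYP libraries and 1351, 1395 and 1171 UMIs in the Control libraries. In normalised UMIs this was 60.7, 78.4 and 86.6 in CYP and 122.5, 153 and 96.1 in Control, and the groups did not overlap. The means were 75.2 ± 13.2 in CYP and 124 ± 28.5 in Control (SD, n = 3 each), a ratio of 0.607, and 0.603 without Control replicate 1. Its log2 fold change was −1.79 ± 0.44 under TMM (edgeR, adjusted p = 0.106) and −0.84 ± 0.32 under scaling to the miRNA rows (adjusted p = 0.201). Neither passed; 7 of the 20 alternatives called the row, and the value stayed between −2.12 and −0.79 in all of them, with adjusted p between 2.44e-06 and 0.300. Without Control replicate 1 it was called lower under TMM, at −1.18 (edgeR, adjusted p = 2.44e-06). It was also called lower under scaling to the miRNA rows without that library, at −0.82 (edgeR, adjusted p = 0.00341). With Control replicate 2 or 3 left out instead, TMM did not call it (edgeR, adjusted p = 0.222 and 0.0661).

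mmu_piR_002142 (27 bases, chromosome 11, bases 69166653 to 69166679, minus strand) was lower in the same way at much smaller counts. It had 130, 137 and 94 UMIs in CYP and 149, 157 and 181 UMIs in Control. In normalised UMIs it averaged 11.5 ± 1.61 in CYP and 15.2 ± 1.88 in Control (SD, n = 3 each). The normalised groups did not overlap, though CYP replicate 2 and Control replicate 1 lay close together. Its log2 fold change was −1.39 ± 0.33 under TMM (edgeR, adjusted p = 0.0993) and −0.50 ± 0.35 under scaling to the miRNA rows (adjusted p = 0.301). It was called in 6 of the 20 alternatives, with adjusted p from 7.90e-07 to 0.301. Without Control replicate 1 it was −0.90 under TMM (edgeR, adjusted p = 7.90e-07) and −0.55 under scaling to the miRNA rows (adjusted p = 0.043). With Control replicate 2 or 3 left out instead, TMM did not call it (edgeR, adjusted p = 0.222 and 0.0661).

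Of the 5 lowest fold changes under TMM, the remaining 2, beside the 3 rows above, had overlapping groups in normalised UMIs. mmu_piR_000935 (30 bases, chromosome 6, bases 47717737 to 47717766, minus strand) had 7.77, 5.78 and 8.83 normalised UMIs in CYP and 10.5, 8.45 and 9.44 in Control. mmu_piR_032156 (29 bases, chromosome 9, bases 67533376 to 67533404, plus strand) had 11, 17 and 8 UMIs in CYP and 14, 18 and 14 UMIs in Control. Their log2 fold changes under TMM were −1.38 ± 0.48 and −1.20 ± 0.47 (edgeR, adjusted p = 0.124 and 0.139). Under scaling to the miRNA rows they were −0.47 ± 0.35 and −0.44 ± 0.58 (edgeR, adjusted p = 0.348 and 0.660). Of the alternatives, 3 called mmu_piR_000935 and none called mmu_piR_032156.

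**Figure D2:**
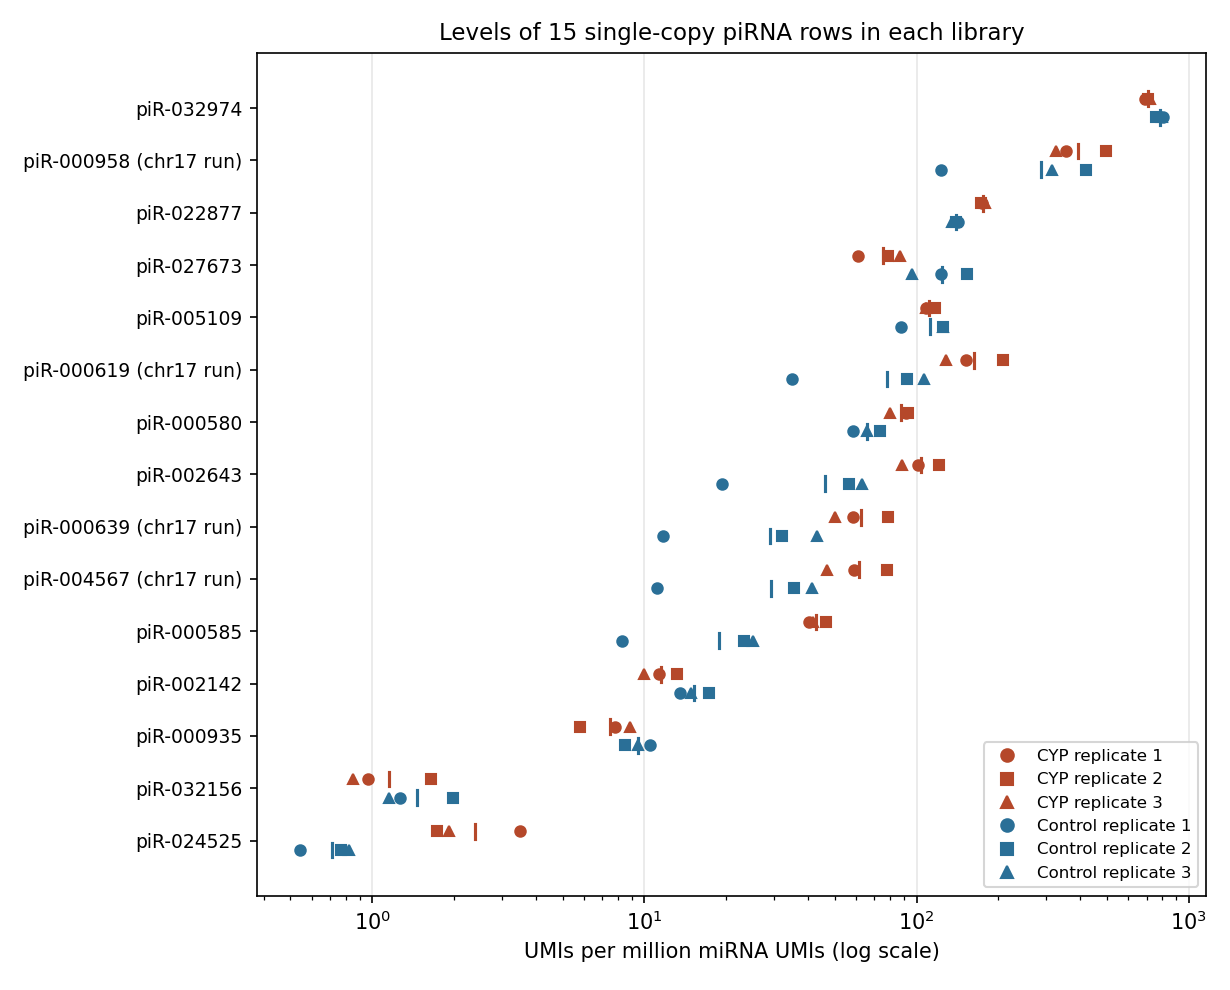
Level of the 15 named single-copy piRNA rows in each library, in normalised UMIs (UMIs per 1000000 miRNA UMIs) on a log axis, with CYP libraries drawn above Control libraries and a bar at each group mean (n = 3 each). mmu_piR_032974, mmu_piR_027673 and mmu_piR_002142 have all CYP points left of all Control points, and Control replicate 1 is far left of the other libraries for the rows of the chromosome 17 run, mmu_piR_002643 and mmu_piR_000585.

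A run of 11 single-copy rows, with 2 several-copy rows among them, lay within 5204 bases of the plus strand of chromosome 17 (bases 39451051 to 39456254). Rows closer than 10 kb on a strand were taken as 1 locus, a choice made after the counts had been seen. The 11 rows summed to 745, 1009 and 662 normalised UMIs in the CYP libraries, against 208, 657 and 592 in the Control libraries. The groups did not overlap, but CYP replicate 3 and Control replicate 2 were nearly level. The ratio of means was 1.66 (exact permutation p = 0.1), or 1.29 without Control replicate 1. The groups overlapped with 1 row kept per overlapping set (ratio 1.599) and as reads over all reads of the library (ratio 1.58), each with an exact permutation p = 0.2. As a share of the single-copy UMIs, the run took 32.8%, 38.2% and 29.6% in CYP and 12.8%, 29.4% and 27.5% in Control, again without overlap (exact permutation p = 0.1).

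The rRNA class of the authors' read summary, given above for each library, had its lowest value in Control replicate 1 and its highest in CYP replicate 2, as the run did. So did the sums of the single-copy rows outside the run (1419 and 1630 normalised UMIs) and of the several-copy rows (1124 and 2750). In Control replicate 1 the run stood at 33.3%, the rRNA reads at 39.6% and the several-copy rows at 46.5% of the mean of the other Control libraries. The single-copy rows outside the run stood at 90.4%, and the most abundant of them, mmu_piR_032974, at 104%. Control replicate 1 was under 50% in 11 of the 37 tested rows outside the run. The part of rRNA in the run's values was not tested.

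**Figure D3:**
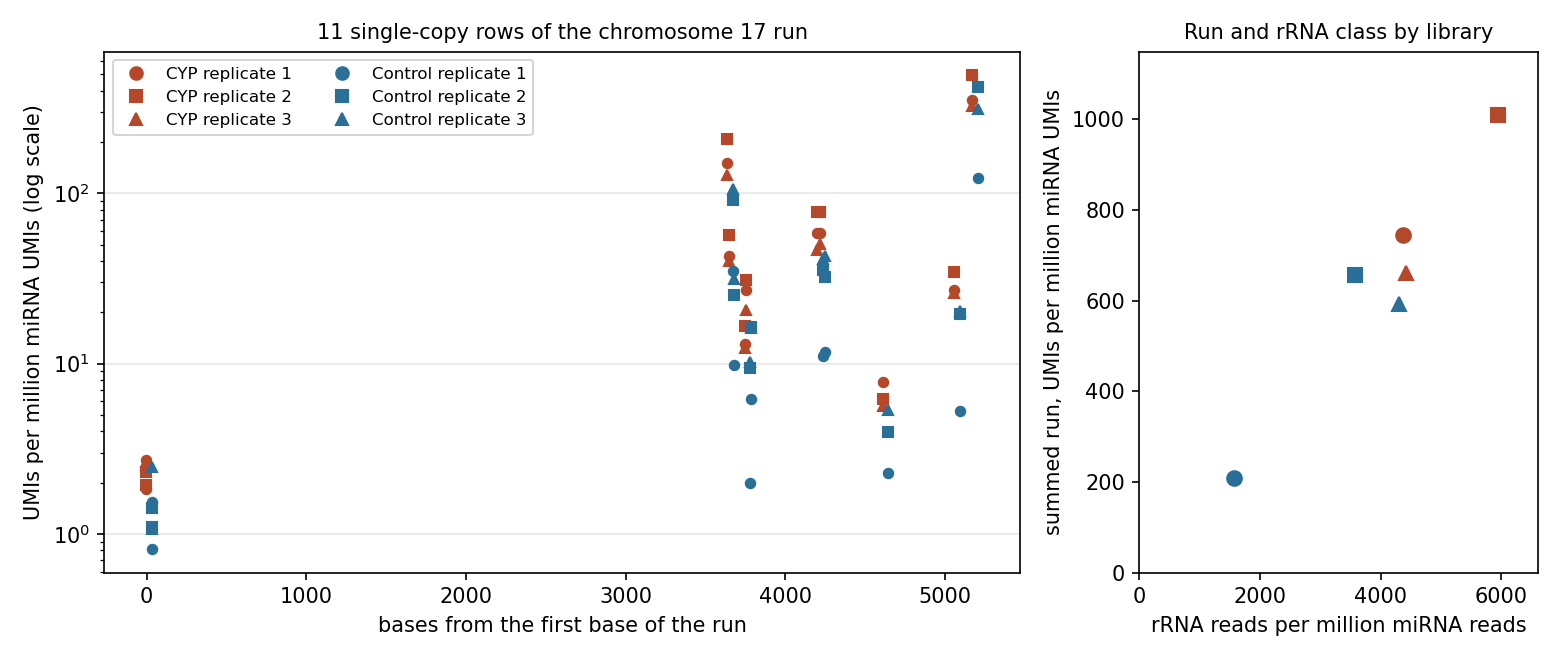
Left, normalised UMIs (UMIs per 1000000 miRNA UMIs, log axis) of the 11 single-copy rows of the chromosome 17 run against distance in bases from its first base, with Control points shifted slightly right of CYP points. Right, the run's sum in each library against rRNA reads per 1000000 miRNA reads; Control replicate 1 is lowest at 208 and 1559, and CYP replicate 2 highest at 1009 and 5948.

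Within the run mmu_piR_000958 (27 bases, 39456228 to 39456254) was the most abundant row and the second of all single-copy rows. It had 354, 495 and 326 normalised UMIs in CYP and 123, 420.5 and 315 in Control. Control replicate 1 was low and the groups overlapped through Control replicate 2. Its log2 fold change was −0.32 ± 0.25 under TMM and 0.37 ± 0.33 under scaling to the miRNA rows (edgeR, adjusted p = 0.352 and 0.449), and the ratio of means was 1.37, or 1.07 without Control replicate 1.

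The next 3 rows of the run had a larger ratio. mmu_piR_000619 (27 bases, 39454691 to 39454717) had 152, 208 and 128.5 normalised UMIs in CYP and 34.8, 92.0 and 107 in Control. mmu_piR_000639 (31 bases, 39455268 to 39455298) had 58.4, 78.3 and 50.3 in CYP and 11.7, 32.2 and 42.9 in Control. mmu_piR_004567 (27 bases, 39455256 to 39455282) had 58.8, 78.2 and 46.7 in CYP and 11.2, 35.6 and 41.1 in Control. In all 3 the groups did not overlap, and Control replicate 1 lay at a fraction of the other Control libraries. Their ratios of means were 2.09, 2.15 and 2.09, and without Control replicate 1 they were 1.64, 1.66 and 1.60. Under TMM their log2 fold changes were 0.28 ± 0.19, 0.35 ± 0.18 and 0.32 ± 0.19 (edgeR, adjusted p = 0.299, 0.211 and 0.265), and under scaling to the miRNA rows 0.98 ± 0.38, 1.03 ± 0.48 and 0.99 ± 0.49 (adjusted p = 0.201, 0.202 and 0.212). Without Control replicate 1 they were 0.27, 0.30 and 0.24 under TMM and 0.64, 0.66 and 0.60 under scaling to the miRNA rows. Each of the 3 was called higher in 3 alternatives, with adjusted p from 7.59e-05 to 0.640 for mmu_piR_000619, from 0.00122 to 0.436 for mmu_piR_000639 and from 0.00260 to 0.553 for mmu_piR_004567.

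The other 7 rows of the run were mmu_piR_005355, mmu_piR_000578, mmu_piR_002435, mmu_piR_000536, mmu_piR_000219, mmu_piR_000310 and mmu_piR_000818. The first of them averaged 46.8 ± 9.23 normalised UMIs in CYP and 22.1 ± 11.1 in Control, and the last 2.14 ± 0.452 in CYP and 1.24 ± 0.265 in Control (SD, n = 3 each). In the run as a whole 9 of 11 rows had CYP above Control without overlap in normalised UMIs (background 51.5%), against 1 of 11 on TMM-scaled counts (background 18.8%). In normalised UMIs 10 of 11 had Control replicate 1 below 50 percent of the other Control libraries. The exception was mmu_piR_000818, with 17 UMIs in Control replicate 1 and 10 and 13 in the others. Under TMM the median log2 fold change of the run was 0.24, with 7 rows above 0 and 4 below. Under scaling to the miRNA rows it was 0.87 with all 11 above 0. For the 37 tested rows outside the run the medians were −0.73 (10 above 0, 27 below) and 0.08 (21 above, 16 below). Without Control replicate 1 the medians, in the same order, were 0.24 and 0.60 in the run and −0.27 and 0.06 outside it.

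The remainder of the run, with mmu_piR_000958 left out, had a ratio of 2.07, or 1.61 without Control replicate 1. mmu_piR_000958 itself made up 47.5%, 49.1% and 49.3% of the run's UMIs in CYP and 59.0%, 64.0% and 53.1% in Control. The groups did not overlap (exact permutation p = 0.1, chosen after the values were seen), and the difference in means was −10.1 percentage points, or −9.92 without Control replicate 1. A ratio within a library needs no scaling and shows only that the rows differed unequally.

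Several rows outside the run showed the same low Control replicate 1. It lay below 50 percent of the other Control libraries in 11 of the 37 tested rows outside the run, against 102 of the 117 tested several-copy rows. The most abundant was mmu_piR_002643 (28 bases, chromosome 3, bases 5843705 to 5843732, plus strand), with 101.5, 121 and 88.7 normalised UMIs in CYP and 19.2, 56.5 and 63.0 in Control. mmu_piR_000585 (26 bases, chromosome 16, bases 57312957 to 57312982, minus strand) had 40.3, 46.6 and 41.6 in CYP and 8.25, 23.2 and 24.96 in Control. Neither row had overlapping groups, and both were picked as higher at an unadjusted p below 0.05. Their ratios of means were 2.24 and 2.28, and 1.74 and 1.78 without Control replicate 1. Under TMM the log2 fold changes were 0.41 ± 0.17 and 0.43 ± 0.13 (edgeR, adjusted p = 0.163 and 0.119). Under scaling to the miRNA rows they were 1.08 ± 0.42 and 1.10 ± 0.48 (edgeR, adjusted p = 0.201 for both). Each row was called higher in 4 of the 20 alternatives, DESeq2 among them. The adjusted p ran from 4.07e-05 to 0.374 for mmu_piR_002643 and from 0.000183 to 0.300 for mmu_piR_000585.

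The row with the highest fold change was sparse. mmu_piR_024525 (32 bases, chromosome 5, bases 115113345 to 115113376, minus strand) had 40, 18 and 18 UMIs in CYP and 6, 7 and 10 UMIs in Control. The groups did not overlap, and CYP replicate 1 held more than the other CYP libraries together. Its log2 fold change was 0.95 ± 0.47 under TMM and 1.63 ± 0.56 under scaling to the miRNA rows (edgeR, adjusted p = 0.199 and 0.201). Of 19 alternatives that gave it a value, 3 called it, with adjusted p from 0.00460 to 0.481.

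Rows of 1 locus could be compared by their ratio within a library, which no scaling of libraries can change. For 9 pairs of single-copy rows, 8 of them next to each other among the single-copy rows and 1 made of the most abundant rows of the chromosome 17 run, the ratio of UMIs was taken in each library, a comparison chosen after the values had been seen. In 3 of the 9 the groups did not overlap, each with an exact permutation p = 0.1 and an adjusted p of 0.3 over the 9 pairs, and in the other 6 they overlapped.

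The first of the 3 was mmu_piR_027673 over mmu_piR_000580, a 30-base row (chromosome 11, bases 106317126 to 106317155, plus strand) that starts 45 bases downstream. mmu_piR_000580 had 91.4, 92.7 and 80.0 normalised UMIs in CYP and 58.3, 73.3 and 65.6 in Control, without overlap. Its ratio of means was 1.34, or 1.27 without Control replicate 1. Its fitted direction flipped, with log2 fold changes of −0.59 ± 0.34 under TMM and 0.32 ± 0.33 under scaling to the miRNA rows (edgeR, adjusted p = 0.246 and 0.527). The ratio of the neighbours was 0.664, 0.845 and 1.08 in the CYP libraries, against 2.10, 2.09 and 1.47 in the Control libraries. In Control the upstream 22-base row was the larger in every library, and in CYP it was the smaller in 2 of 3. The difference of the mean log2 ratios was −1.13, and −1.05 without Control replicate 1.

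The second was mmu_piR_005109 over mmu_piR_000634, a 28-base row (chromosome 5, bases 146565397 to 146565424, plus strand) that starts 139 bases downstream. mmu_piR_000634 had 210, 230 and 149 UMIs in CYP and 31, 121 and 166 UMIs in Control. The ratio was 5.92, 5.27 and 6.84 in CYP, against 31.2, 9.39 and 9.16 in Control. Control replicate 1 lay far above the others, and the difference of mean log2 ratios of −1.22 became −0.63 without it. mmu_piR_005109 also overlaps a several-copy row by 13 bases.

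The third was mmu_piR_000958 over mmu_piR_000619, the most abundant rows of the chromosome 17 run, whose starts lie 1537 bases apart with other rows of the run between them. The ratio was 2.33, 2.39 and 2.54 in CYP and 3.53, 4.57 and 2.95 in Control. The CYP libraries were close together and all lay below the Control libraries, with a difference of mean log2 ratios of −0.58, and −0.60 without Control replicate 1.

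**Figure D4:**
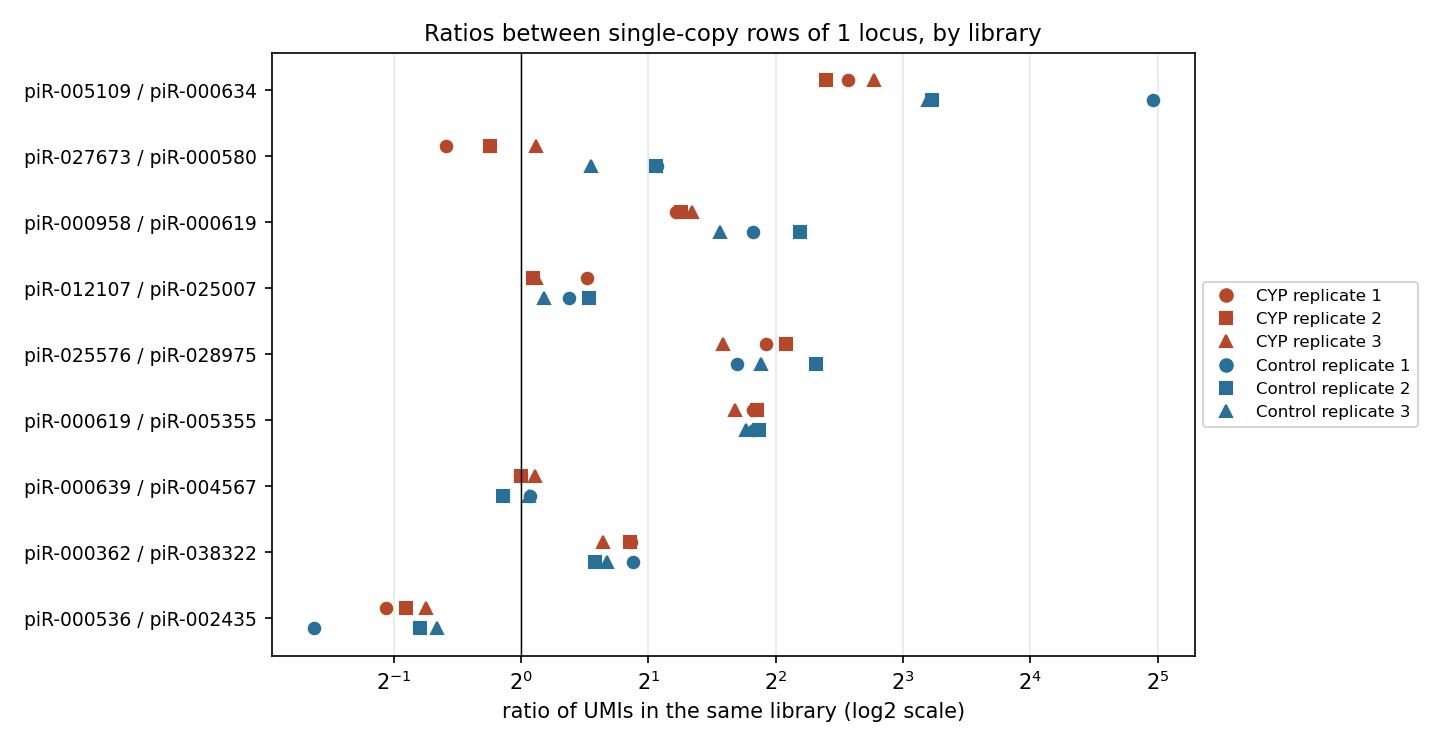
Ratio of UMIs between single-copy rows of the same locus in the same library, on a log2 axis, for 9 pairs, with CYP libraries drawn above Control libraries. The CYP points lie left of all Control points for the 3 pairs at the top, and the groups overlap for the other 6.

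Rows whose coordinates overlap may count the same reads. There were 5 overlapping pairs of single-copy rows, 4 of them in the run, sharing 15 to 29 bases, and 3 more single-copy rows (mmu_piR_039114, mmu_piR_005109 and mmu_piR_006156) overlapped several-copy rows, so 13 rows in all may share reads with another. mmu_piR_000639 over mmu_piR_004567, which share 15 bases, was 0.994, 1.00 and 1.08 in CYP and 1.05, 0.904 and 1.04 in Control. mmu_piR_000619 over mmu_piR_005355, which share 18 bases, was 3.53, 3.62 and 3.20 in CYP and 3.56, 3.64 and 3.41 in Control. On chromosome 6, mmu_piR_000362 and mmu_piR_038322 share 29 bases (3151474 to 3151505 together, plus strand), and their ratio was 1.82, 1.81 and 1.56 in CYP and 1.84, 1.49 and 1.60 in Control. mmu_piR_000536 over mmu_piR_002435, which share 20 bases, was 0.479, 0.534 and 0.595 in CYP and 0.324, 0.577 and 0.635 in Control, with Control replicate 1 lowest. The fifth pair shares 27 bases and had few UMIs: mmu_piR_000310 had 31, 24 and 24 UMIs in CYP and 9, 13 and 30 in Control. mmu_piR_000818 had 21, 20 and 25 UMIs in CYP and 17, 10 and 13 in Control. Members of such a pair may not be separate measurements.

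Of the 37 tested rows outside the run, 24 had overlapping groups in normalised UMIs. The groups overlapped in 2 of the 11 rows of the run and in 50 of the 117 tested several-copy rows. mmu_piR_025576 and mmu_piR_028975, a pair of 22-base rows on the minus strand of chromosome X (6405378 to 6405436), averaged 17.4 ± 1.28 and 4.80 ± 0.544 normalised UMIs in CYP and 17.1 ± 1.57 and 4.42 ± 0.834 in Control (SD, n = 3 each). mmu_piR_032865 on chromosome 2 averaged 22.1 ± 2.99 in CYP and 20.15 ± 0.537 in Control. In these 3 rows the groups overlapped. Outside the run 26 tested rows had Control replicate 1 at 50 percent or more of the other Control libraries, and their median log2 fold change under scaling to the miRNA rows was −0.04.

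The 11 rows that did not pass the filter were each listed at 0 in at least 3 libraries, and none exceeded 21 UMIs. mmu_piR_024062 (chromosome 9, bases 67535125 to 67535154, plus strand) was listed at 0 in all 3 CYP libraries and in Control replicate 1, and had 21 and 19 UMIs in Control replicates 2 and 3. No fold is given, since the listed 0 in CYP replicates 1 and 2 and in Control replicate 1 can stand for up to 9 UMIs. CYP replicate 3 lists low counts where Control replicate 2 has at least 10 UMIs, as here, so its 0 need not hide a count. The calls of this row in fits without Control replicate 1 rest on these zeros. mmu_piR_028241 had 10 UMIs in CYP replicate 1 and was listed at 0 elsewhere, and mmu_piR_039114 had 10 UMIs in Control replicate 3 alone. In all, 40 of the 59 rows had at least 10 UMIs in every library.

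The authors' deposited table gives a fold change (CYP over Control) for 57 of the 59 rows, from the same libraries. Of the folds in the authors' deposited table, 31 were above 1, 25 below 1 and 1 was exactly 1. The lowest in the authors' deposited table was 0.57, for mmu_piR_027673, and the highest was 1.75, for mmu_piR_002643 and mmu_piR_000585. In the authors' deposited table the rows of the chromosome 17 run ran from 1.15 to 1.68, and mmu_piR_032974 stood at 0.80. Folds in the authors' deposited table are not plain ratios of the listed UMIs and cannot be set directly beside the ratios of means above. mmu_piR_028241, listed with UMIs in CYP replicate 1 alone, stood at 1.06 there. mmu_piR_024525 stood at 1.53 there, where its ratio of means in normalised UMIs was 3.35.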

How the data were processed

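UMI and read counts per row were deposited by the authors as whole numbers, not normalized, per the file headers. The fold changes from the authors' deposited table are CYP over Control, and how they were computed was not checked. The submitters' processing notes name mm10, STAR 2.6, DESeq2, Trim Galore and FastQC 0.11.7, without their roles, and no counting tool. The 188 piRNA rows were tested together with edgeR 4.0.16 in R 4.3.3 (robust quasi-likelihood, TMM, group only, minimum count 10 and minimum total 15), with Benjamini-Hochberg adjustment over tested rows and an adjusted p below 0.05 as a call. DESeq2 1.42.0 was an alternative. The SE of each log2 fold change was derived as its absolute value divided by the square root of edgeR's F statistic. Levels are UMIs divided by the library's miRNA UMIs. Sums and ratios were compared by exact permutation with SciPy 1.17.1. The edgeR script was tested on simulated data.

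Named rows are those called, the 10 most abundant, the 5 with the largest fold change in each direction, and overlapping rows where 1 is called; rows beyond these were chosen after their values were seen. The members, lists and tests were chosen with earlier results of these data known. Every pair of libraries differed by more than counting noise (chi-square per degree of freedom from 3.44 to 60.4). Depth ran from 17944 to 27386 single-copy UMIs per library. The loci, ratios, chromosome 17 sums and joint alternatives were added after the values were seen.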

Additional observations from a re-analysis of the deposited data

How the results depend on the processing

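Calls were sensitive to scaling and to Control replicate 1. The count of single-copy rows called higher was 0 with edgeR and became 10 with library totals (background 24.8%) and 2 with DESeq2 (background 2.42%). Without Control replicate 1 it became 9 with scaling to the miRNA rows (background 21.8%) and 14 with library totals (background 35.3%). The count called lower was 0 and became 3, 11, 3 and 3 under the same settings (backgrounds 3.03%, 17%, 4.12% and 8.09%). It was 2 with upper-quartile factors (background 2.42%), and 1 with miRNA and piRNA rows in 1 table (background 0.606%). Leaving out 1 library at a time gave 0 to 0 called higher and 0 to 11 called lower, the 11 without Control replicate 1 (background 17.3%). RLE factors, scaling to the miRNA rows, no filter, a stricter filter (30 UMIs in 3 libraries), reads in place of UMIs, 1 row per overlapping set, and no robust option gave 0 in both directions. The replicate block also gave 0 higher and 0 lower. It had 19 single-copy rows at an unadjusted p below 0.05 against 17 (edgeR). Over all 165 tested piRNA rows it had 46 against 50. The labels do not say whether the numbers shared by the groups pair the libraries. Same-numbered libraries correlated at 0.31, −0.32 and 0.07 in their deviations from the group means, and CYP replicate 3 with Control replicate 2 at 0.61. With 3 libraries in each group these values cannot decide whether libraries are paired.

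The median log2 fold change over all piRNA rows was 0.62 with library totals, 0.75 in 1 table and 0.38 in both joint settings without Control replicate 1, against 0.07. Directions reversed for mmu_piR_000958 (0.24 with library totals, 0.37 scaled to the miRNA rows, 0.35 in 1 table, and 0.017 and 0.012 in the 2 joint settings without Control replicate 1), mmu_piR_022877 (0.22 scaled to the miRNA rows, 0.21 in 1 table, 0.27 and 0.29 in the joint settings) and mmu_piR_000580 (0.093, 0.32, 0.30, 0.27 and 0.28, in the order of mmu_piR_000958). The difference in the single-copy share of piRNA UMIs was 1.73 points without the most abundant row, and −4.25 to 1.56 leaving out 1 library, the highest without Control replicate 1. The sum outside the run had a ratio of 0.995 per read of the library. Among the ratios whose groups overlapped, leaving out 1 library reversed mmu_piR_025576 over mmu_piR_028975 (−0.23 to 0.075), mmu_piR_000536 over mmu_piR_002435 (−0.18 to 0.31), mmu_piR_000619 over mmu_piR_005355 (−0.072 to 0.016) and mmu_piR_000639 over mmu_piR_004567 (−0.032 to 0.075). The causes were not tested. Rows under 10 UMIs are limited by the listing of low counts as 0.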
